A study of Mus musculus with 16 samples.

Results

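Ribosome footprints that stood on transcripts with no annotated coding sequence (CDS) made up 838037 of 2859681 rows of a footprint table from mouse neural stem cells, or 29.31%, on 31274 of 74042 transcripts (42.24%). The members were taken by 1 rule: the table's column for the end of the CDS was 0 or empty for the transcript. A row is 1 footprint start position and length on 1 transcript in 1 library, with the inferred position of the ribosomal P-site, where the growing peptide is held. The series set cells carrying a guide RNA (gRNA) for an agent named TAPIR, in self-renewing conditions (labelled GF), against control cells in the same conditions. Ribosomes were pulled down and their footprints turned into LACEseq libraries by Immagina, with 2 gRNA and 2 control samples, 1 of each in each of 2 batches. Total RNA came from 6 gRNA and 6 control samples, also in 2 batches. The labels do not name the target of the gRNA, the mouse strain or age, or say whether samples of a group were separate cultures, so a p-value over samples reflects their spread only, and that spread may be technical. The table names 4 footprint libraries, and 0 of these names were found in the labels. They are called libraries 1 to 4 here, each with its own values, and gRNA was not compared with control in the footprints. A test over these 4 libraries spans both treatments and both batches, and no library could be placed in either.

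A translating ribosome covers a short stretch of mRNA and moves by 1 codon at a time, so footprints in a CDS prefer 1 of 3 reading frames. Transcripts annotated without CDS include long noncoding RNAs, hosts of small nucleolar RNAs (snoRNAs), pseudogenes, structural RNAs, and spliced forms of coding genes that keep an intron or lack an open frame. A footprint read that fits several transcripts of a gene, or near-identical copies of it, can be listed under each of them. The files do not pair the transcript identifiers with genes or sequences, so members are named by identifier only, their gene class was not given, and no sequence is shown.

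The share of rows on transcripts without CDS was 28.13% of 2174905 rows in library 1 (95% Wilson interval 28.07 to 28.19). It was 32.96% of 250755 rows in library 2 (32.77 to 33.14), 32.3% of 331338 in library 3 (32.14 to 32.46) and 35.65% of 102683 in library 4 (35.36 to 35.94). Library 1, with the most rows, had the lowest share, and library 4, with the fewest, had the highest. The intervals cover counting error only and are too narrow, because 1 footprint can stand on several transcripts. No rows of the table were identical, so a start position can hold at most 7 rows per library, 1 for each length from 26 to 32 nt.

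Most members carried few rows. The median was 6 rows per transcript, against 16 for transcripts with CDS, and 6067 members had exactly 1 row. The 5743 members seen in all 4 libraries (18.36%) held 72.15% of the rows. A further 13507 members (43.19%) were seen in 1 library and held 5.03% of the rows; 92.65% of them were seen in library 1, the library with the most rows. Values per transcript are given for the 3873 members with at least 50 rows (12.38% of members, 68.47% of rows), and 10351 transcripts with CDS reached that number.

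Most footprints on transcripts without CDS were also listed under a coding transcript. Rows were matched by runs of 5 consecutive occupied start positions with the same spacing and the same lengths and libraries at each position on both transcripts. By this measure 80.09% of member rows stood in a run shared with a coding transcript. Another 9.14% were shared only with other transcripts without CDS, 6.64% were not shared, and 4.13% lay on transcripts with under 5 start positions. The share held in common with coding transcripts was 81.62% in library 1, 75.41% in library 2, 78.14% in library 3 and 70.9% in library 4. Rows shared only among transcripts without CDS went the other way, at 7.7%, 13.89%, 11.35% and 16.01%. A shared run shows that the same footprints were listed under both; forms of 1 gene and near-identical copies cannot be told apart by it.

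**Figure D1:**
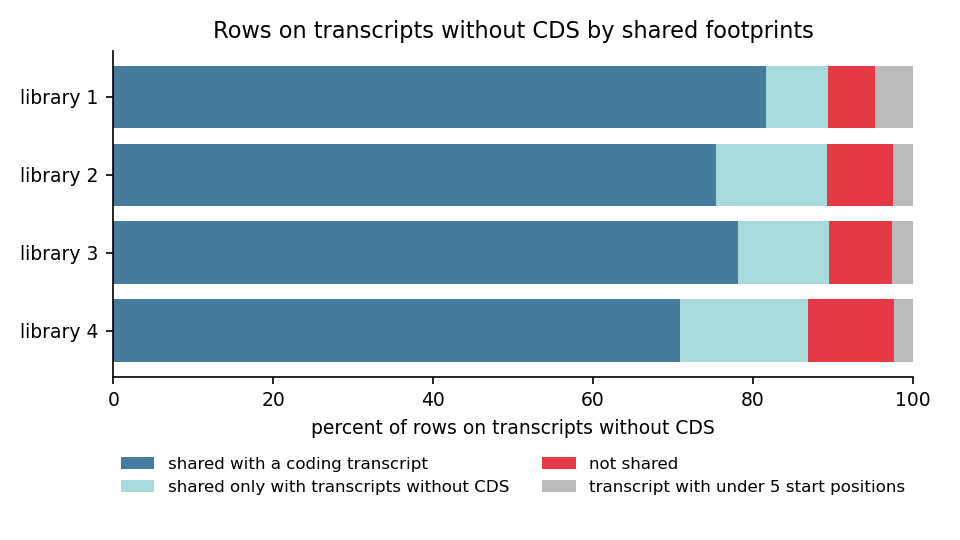
Rows on transcripts without CDS in each footprint library (horizontal axis, percent of those rows), divided by whether the rows stood in runs shared with a coding transcript, shared only with other transcripts without CDS, not shared, or on transcripts with under 5 start positions. The shared-with-coding part runs from 70.9% in library 4 to 81.62% in library 1.

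Where a shared run could be placed on its coding counterpart, it lay mostly in the CDS. Of 669878 rows placed, 93.79% were in the CDS, 4.19% in the 5′ untranslated region (UTR) and 2.03% in the 3′ UTR. Over all rows of coding transcripts these shares were 87.59%, 6.07% and 6.35%. Placed rows had to lie in a matched run, while all rows of coding transcripts did not. The part of this rule in the difference was not tested. On the counterpart, 51.69% of the rows in the CDS were in frame 0, 18.31% in frame 1 and 30% in frame 2, against 52.02%, 18.02% and 29.96% over all CDS rows. These are the same footprints as those of the coding transcripts, so the likeness is no independent measurement.

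Single transcripts fell mostly at the ends of the scale. Of the 3873 members with at least 50 rows, 3629 (93.7%) shared 50% or more of their rows with coding transcripts, and 1732 shared every row. In 2793 of the 3629, most shared rows matched a coding transcript within 50 places in the order of the table; these are called the neighbour group. In the other 836, called the distant group, most matched a coding transcript farther away. A mixed group of 82 shared 10% to 50%. The remaining 162 (4.18%) shared under 10% and are called the apart group; 158 of them shared no row. The table's order is not explained in the sources, so a neighbour is not shown to be of the same gene. On counterparts of the distant group, 98.97% of placed rows were in the CDS and 0.248% in the 5′ UTR, against 93.95% and 3.72% for the neighbour group.

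**Figure D2:**
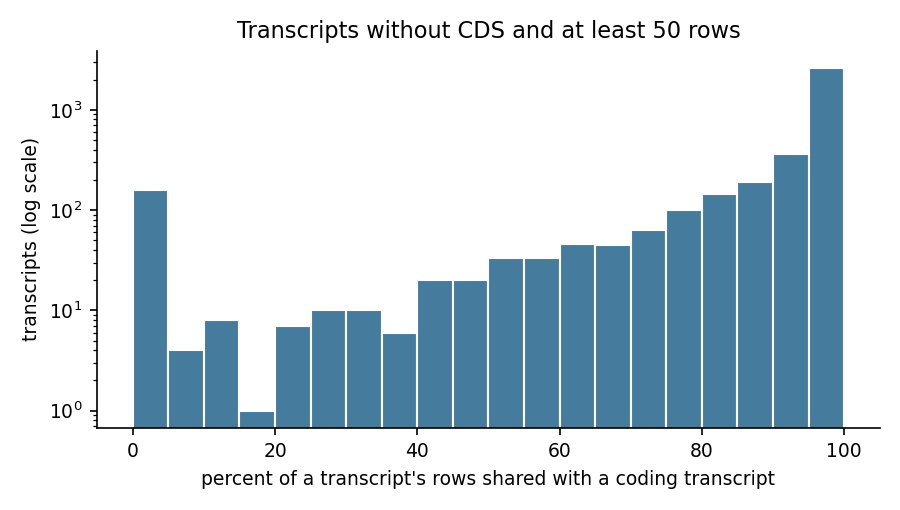
Transcripts without CDS and with at least 50 rows (vertical axis, log scale) by the percent of their rows shared with a coding transcript (horizontal axis, bins 5 wide). Of the 3873 transcripts, 162 lie below 10% and 3629 at 50% or above.

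The counts rose through the 50% edge, with 20 transcripts at 45% to 50% and 33 at 50% to 55%, and were low at the 10% edge, with 4 at 5% to 10% and 8 at 10% to 15%. Just below the 10% edge lay ENSMUST00000240377 with 9.1% and just above it ENSMUST00000215568 with 12.63%. At the 50% edge, ENSMUST00000198555 had 49.68% and ENSMUST00000187574 had 50%. The groups were defined after the table had been seen.

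The apart group took a larger part of the member rows in the libraries with fewer rows. It held 4.61% of member rows in library 1, 13.45% in library 2, 11.12% in library 3 and 18.69% in library 4. The neighbour group held 42.41%, 42.49%, 44.04% and 40.48%, and the distant group 16.43%, 21.93%, 21.6% and 22.45%. Without the first-ranked transcript, the apart group held 3.94%, 9.87%, 8.02% and 12.41%. Many of its transcripts list the same footprints, and with 1 transcript kept of each set that shares runs it held 1.6%, 5.74%, 5.1% and 9.39%, or 0.929%, 2.17%, 2% and 3.11% without the first-ranked transcript too. In the apart group, 11.73%, 6.2%, 6.66% and 5.3% of start positions held all 7 lengths and could gain no further row, against 1.0%, 0.32%, 0.4% and 0.25% on transcripts with CDS. The part that this ceiling has in the lower share in library 1 was not tested.

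ENSMUST00000240377 had more rows than any other member, with 4106 in library 1, 2953 in library 2, 3321 in library 3 and 2299 in library 4. These made 0.671%, 3.57%, 3.1% and 6.28% of the member rows of each library. Library 1 had the lowest share and library 4 the highest. Its footprints ran from base 1 to base 1849 and covered 99.51% of that stretch. The densest 50 nt held 8.68% of the rows, and 48.09% of the occupied P-site positions were seen in all 4 libraries. At 28.64%, 17.9%, 19.74% and 14.86% of its start positions, libraries 1 to 4 held all 7 lengths. The leading reading frame held 33.7% of its rows, near the 33.3% of an even spread, and no single frame led in the 4 libraries. A full start position can gain no further row, which limits how far 1 frame can lead. The part of this ceiling in the even spread was not tested. The mean footprint length of this transcript was 29, 29.01, 28.99 and 28.94 nt. A start position with all 7 lengths has a mean of 29 nt by construction, so this value is partly set by the ceiling on rows.

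ENSMUST00000172812 was the second, with 2647, 933, 983 and 522 rows in libraries 1 to 4. Its footprints lay between bases 9 and 6605 and covered 48.79% of that stretch, with 67.26% of rows in the first of 3 equal parts of it, 10.72% in the middle part and 22.03% in the last. The densest 50 nt, bases 1428 to 1477, held 9.97% of the rows. The leading frame held 33.94%, and it shared no row with a coding transcript but 87.37% with other transcripts without CDS. Several high peaks along it, such as those in the bins at 1450 and 6450 nt, stood at the same places in the 4 libraries. Not all did: the bin at 5250 nt held 1.89%, 0.107%, 0.305% and 0.192% of the transcript's rows in libraries 1 to 4. No measure of this likeness was computed.

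**Figure D3:**
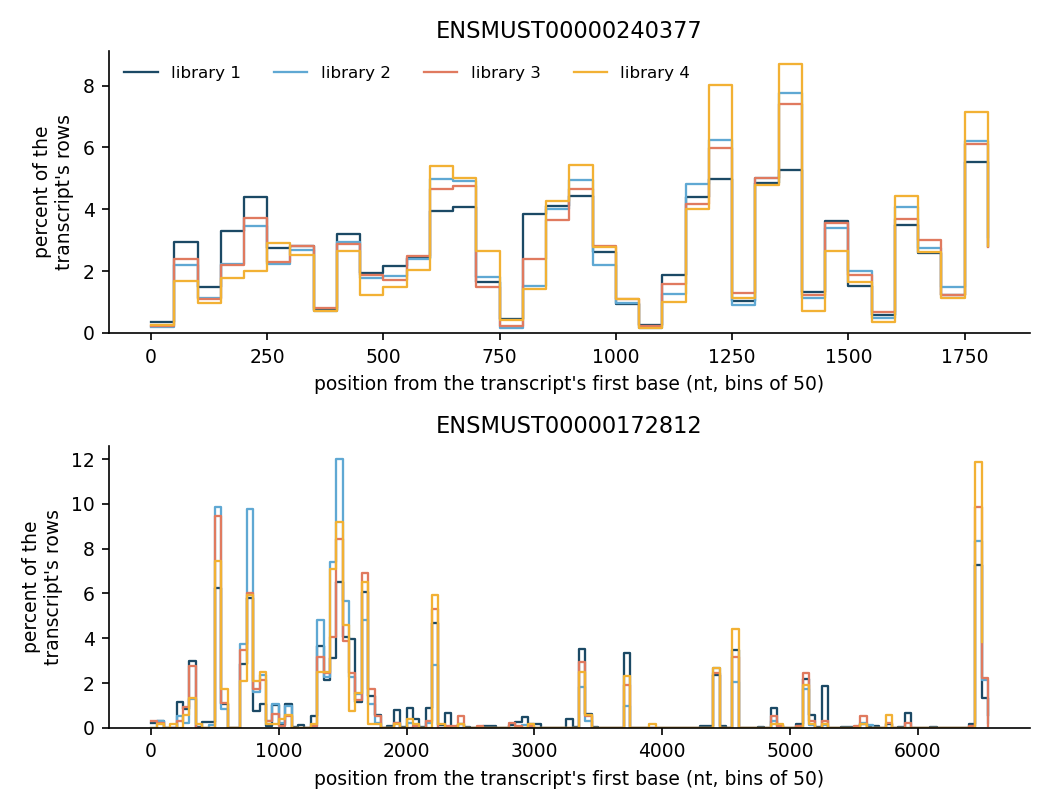
Rows along ENSMUST00000240377 (upper panel) and ENSMUST00000172812 (lower panel) in bins of 50 nt from the transcript's first base, as a percent of the transcript's rows in each library (lines, libraries 1 to 4). The first is covered over 99.51% of its stretch and the second over 48.79%, with most of its rows in the first of 3 equal parts.

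Of the 15 members with the most rows, 9 were in the apart group. ENSMUST00000172812 and 7 others of these shared runs with each other: ENSMUST00000249650 (1849, 743, 720 and 363 rows), ENSMUST00000249652 (1597, 704, 639 and 319), ENSMUST00000245771 (1524, 661, 603 and 299), ENSMUST00000249651, ENSMUST00000249645, ENSMUST00000249643 and ENSMUST00000245150. Each of these 7 shared at least 99.13% of its rows with other transcripts without CDS and had a leading frame of 33.39% to 33.72%. They are not separate measurements: the same footprints were counted in each. With 12 more they formed a set of 20 transcripts with 29064 rows summed, all within 20 places of each other in the table's order.

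The other 6 of the 15 shared most rows with coding transcripts. ENSMUST00000185676 (1784, 470, 604 and 292 rows), ENSMUST00000146770 (704, 254, 268 and 140) and ENSMUST00000145255 (601, 231, 263 and 124) were in the neighbour group and shared 99.97%, 97.8% and 98.11%. ENSMUST00000052615 (746, 216, 271 and 92), ENSMUST00000121455 (737, 194, 217 and 79) and ENSMUST00000119417 (653, 202, 239 and 110) were in the distant group and shared 84.68%, 88.26% and 87.21%. Their leading frames held 41.53% to 44.14% of rows, above the 33.39% to 33.94% of the 9 apart transcripts, and the same frame led in all 4 libraries in 5 of the 6. The exception was ENSMUST00000052615. Rows were gathered at 1 end in some of them: 94.18% of those of ENSMUST00000145255 lay in the last of 3 equal parts, and 74.25% of those of ENSMUST00000119417 in the first.

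The 162 apart transcripts formed 51 sets when transcripts with at least 5 runs in common were joined. Of these sets, 31 held 1 transcript, and the other 20 held 131 transcripts. Of the 20, 15 lay within 50 places in the table's order and 5 were spread wider. ENSMUST00000240535 led a set of 7 transcripts spread over the table, with 125, 54, 74 and 62 rows between bases 77 and 170, all of them shared with other transcripts without CDS. ENSMUST00000175032 led another spread set of 7, with 102, 29, 46 and 36 rows, 63.85% of them in 1 window of 50 nt. ENSMUST00000181361 led a set of 20 and ENSMUST00000140111 a set of 13, both within 50 places; they had 207, 25, 15 and 7 rows and 142, 16, 28 and 7 rows. In both, library 1 held most rows, as it did in the table as a whole.

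Some leaders were short and densely covered. ENSMUST00000082919 had 88, 56, 62 and 53 rows between bases 27 and 84, with 94.21% of them in the middle of 3 equal parts. P-sites lie 13 or 14 nt inside a footprint, so most of the outer parts of so short a stretch can hold none. The middle part is favoured there by construction. ENSMUST00000184437 had 56, 45, 57 and 38 rows between bases 2 and 83. On both transcripts, library 1 had more rows than library 4 but a lower share of its member rows. The shares in libraries 1 and 4 were 0.0144% and 0.145% for ENSMUST00000082919, and 0.00915% and 0.104% for ENSMUST00000184437. ENSMUST00000082390 (212, 74, 92 and 45 rows, bases 61 to 1534) and ENSMUST00000082388 (230, 53, 73 and 23 rows, bases 50 to 954) were longer, shared no row with another transcript, and had leading frames of 39.24% and 36.68%.

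Footprints lay on fewer positions, at the median, on transcripts without CDS than on those with CDS, at 92 and 99 rows per transcript. In members with at least 50 rows the median was 42 occupied P-site positions (quartiles 31 and 61), against 57 (42 and 86) on transcripts with CDS. The densest 50 nt held a median of 58.18% of a transcript's rows, against 39.81%. It held 56.36% in the neighbour group, 61.83% in the distant group and 74.04% in the apart group, where the quartiles were 42.05% and 95.51% and the median with 1 transcript per set was 87.74%. The most used position held a median of 8.08% of rows, or 10.17% in the apart group (14.58% with 1 transcript per set) and 6.15% on transcripts with CDS. The stretch from the first to the last footprint was 567 nt at the median in members and 1528 nt on transcripts with CDS. Transcript lengths are not in the table, so parts and coverage refer to that stretch. The first of 3 equal parts held a median of 32.73% of rows in members and 35.79% on transcripts with CDS. These are descriptions, with no test.

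Footprints on transcripts without CDS had a lower mean length than those in CDS in each library, by a small amount that the test could not call. Their mean lengths were 29.78, 29.35, 29.45 and 29.11 nt in libraries 1 to 4, against 29.91, 29.45, 29.57 and 29.23 nt for rows in the CDS of coding transcripts. The difference was −0.127, −0.0922, −0.112 and −0.122 nt, below 0 in 4 of 4 libraries (exact two-sided sign-flip permutation test over the libraries, p = 0.13, the smallest that 4 libraries allow). Rows shared with coding transcripts differed from CDS rows by −0.0685 to 0.0083 nt, with both signs. Rows outside runs shared with coding transcripts differed by −0.5 to −0.389 nt, below 0 in 4 of 4 libraries (p = 0.13 by the same exact test). These include the rows on transcripts with under 5 start positions, where a shared run could not be found.

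In the apart group the mean was 29.16, 29.04, 29.03 and 28.87 nt, and the difference from the CDS mean was −0.753, −0.411, −0.533 and −0.361 nt in libraries 1 to 4, below 0 in 4 of 4 (p = 0.13 by the exact sign-flip permutation test). Footprints of 31 or 32 nt made up 31.58%, 29.35%, 29.4% and 26.81% of apart rows, against 52.14%, 40.11%, 43.71% and 33.84% of CDS rows. The ceiling of 7 rows evens out the lengths at full positions. At start positions that held 1 row in a library, the apart group was at 29.4, 29.08, 29.15 and 28.71 nt and the CDS at 30.26, 29.53, 29.69 and 29.27 nt. The difference there was −0.8526, −0.4472, −0.535 and −0.5545 nt. The CDS mean at such positions was above that of all CDS rows in each library, and apart transcripts that list the same footprints were all counted. The part of the ceiling in the length difference was not tested. Without ENSMUST00000240377 the difference of the apart group from the CDS mean was −0.725 to −0.395 nt. The set of 20 transcripts led by ENSMUST00000172812 held 29064 of the 58055 apart rows, and without it the difference was −0.746, −0.506, −0.631 and −0.385 nt. With 1 transcript per set it was −0.811, −0.447, −0.558 and −0.292 nt.

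**Figure D4:**
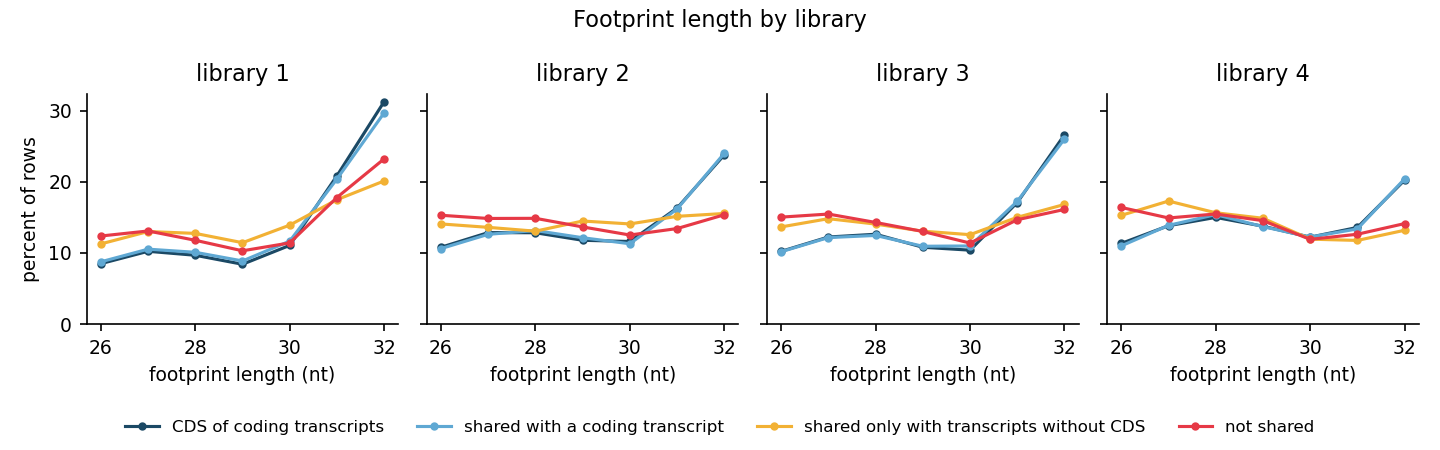
Footprint length (horizontal axis, nt) as a percent of the rows of each class (vertical axis) in libraries 1 to 4. Rows shared with a coding transcript follow the CDS line, while rows shared only among transcripts without CDS and rows not shared are flatter and hold fewer footprints of 32 nt.

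The preference for 1 reading frame was lower at the median in the apart group than in the other members. The leading frame held a median of 49.48% of rows in all members with at least 50 rows, 50% in the neighbour group, 48.88% in the distant group, 38.1% in the apart group and 53.54% over the CDS rows of coding transcripts. A leading frame is above 33.3% by its definition, and more so in short counts, so each transcript was also thinned to 50 rows. The medians were then 50% in the neighbour group, 48% in the distant group, 40% in the apart group and 54% for CDS rows. Over the 74 apart transcripts with no start position at which a library held all 7 lengths, the median was 39.68%, against 54.72% for the 6611 coding transcripts of that kind. With 1 transcript per set, the median of the 51 apart transcripts was 39.24%.

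In each library the apart group had the lowest median of these groups. The median for the apart group was 37.88%, 35.78%, 35.14% and 35.82% in libraries 1 to 4, over transcripts with at least 50 rows in that library, against 55.09%, 45.1%, 48.68% and 44.23% for CDS rows. The difference was −17.2 to −8.41 percentage points, below 0 in 4 of 4 libraries (exact two-sided sign-flip permutation test, p = 0.13, the smallest possible). For the distant group it was −5.52 to −2.24 points, below 0 in 4 of 4 (p = 0.13 by the exact test). For the neighbour group it was −3.66 to 1.22 points, below 0 in 3 of 4 (p = 0.25 by the exact test). The neighbour and distant groups hold footprints of coding transcripts, so the members of this comparison are not independent of the CDS rows. Many apart transcripts list the same footprints, so their medians count some footprints many times. With 1 transcript per set, the apart medians in libraries 1 to 4 were 38%, 36.38%, 35.14% and 35.65%. They rest on 25, 6, 7 and 4 transcripts.

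**Figure D5:**
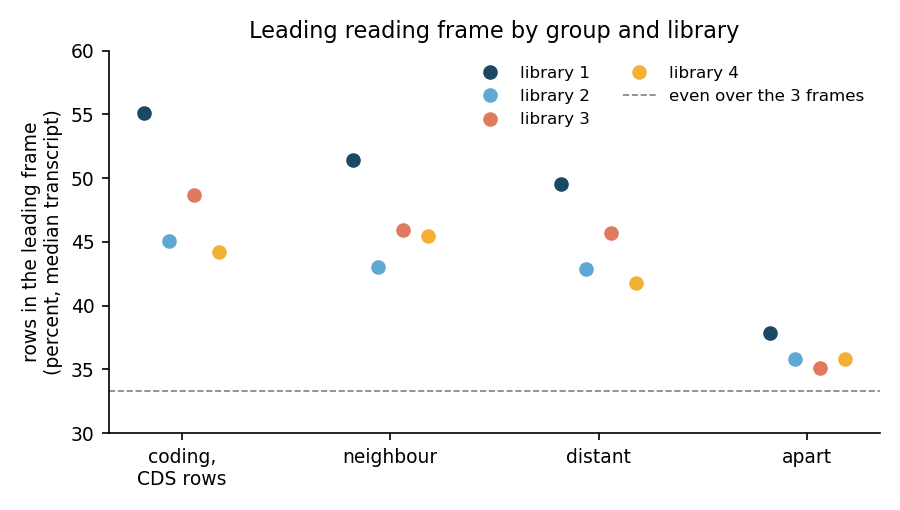
Percent of rows in the leading of 3 reading frames (vertical axis, median over transcripts with at least 50 rows in the library) for CDS rows of coding transcripts and for the neighbour, distant and apart groups of transcripts without CDS; each point is a library, and the dashed line is an even spread over the frames. The axis starts at 30%. The 4 apart points lie between 35.14% and 37.88%, and many apart transcripts behind them list the same footprints.

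The same frame led across libraries less often in the apart group than in the other groups. The rate that transcripts with no frame preference would give was not computed. With at least 20 rows in each library, the same frame led in all 4 in 0 of 32 apart transcripts, 62 of 126 neighbour, 60 of 110 distant and 219 of 450 coding transcripts. In library 4, frames 0 and 1 of CDS rows were at 41.35% and 38.92%. Over the same transcripts, the same frame led in libraries 1 to 3 in 0 of 32 apart, 103 of 126 neighbour, 82 of 110 distant and 388 of 450 coding transcripts. With 20 rows asked only of libraries 1 to 3, the same frame led in 5 of 46 apart transcripts (10.87%), 253 of 373 neighbour (67.83%), 197 of 279 distant (70.61%) and 1168 of 1492 coding transcripts (78.28%). Apart transcripts of 1 set share footprints, so these counts are not of independent transcripts; with 1 transcript per set, 8 had 20 rows in each of the 4 libraries, and the same frame led in libraries 1 to 3 in 0 of them.

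RNA levels could be given only for noncoding genes listed by symbol, which the files do not tie to the transcripts above. In bulk RNA, fewer cells of a type and less RNA per cell cannot be told apart. The 12 RNA-seq libraries held 8414028 to 19454390 counts in genes, and all 7 listed neural stem markers, Sox2 and Nes among them, passed the filter. Of 49 listed genes (26 long noncoding RNAs, 18 snoRNA hosts and 5 small RNAs), 40 had a row and 32 passed the filter on low counts. Between gRNA and control, 0 of these 32 passed edgeR's quasi-likelihood test at a Benjamini-Hochberg adjusted p of 0.05 over all 17704 genes, of which 0% were called. At an unadjusted p under 0.05 there were 0 of the 32 and 230 of all genes, and DESeq2 called 0 genes, with 285 at that unadjusted p. The median log2 fold change of the 32 was 0.0047, beside −0.0074 over all genes tested, and the values ran from −0.72 for Miat to 0.48 for Snhg9.

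Malat1, a nuclear-speckle RNA, was at 994, 591 and 633 CPM (counts scaled to library size) in the gRNA libraries and 744, 1326 and 564 CPM in the control libraries of batch 1, and at 443, 472 and 501 against 449, 448 and 590 CPM in batch 2. The treatments overlapped in both batches, and the log2 fold change was −0.16 (SE 0.19, n = 6 per group, edgeR adjusted p = 0.9998), or 0.035 without control library 2. Gas5, host of several snoRNAs, was at 96.2, 74.2 and 63.8 CPM in gRNA and 74.9, 92.3 and 59.5 CPM in control libraries of batch 1, and at 90.6, 93.5 and 87.6 against 92.9, 94.3 and 74.5 CPM in batch 2, again overlapping (log2 fold change 0.05, SE 0.12, and −0.025 without gRNA library 1).

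Between the batches, 61.4% of all genes were called by the same fit, 28.4% higher and 33.1% lower in batch 2. Of the 32 listed genes, 12 were called higher and 14 lower. That share was not tested against the background. Neat1, the scaffold RNA of paraspeckles, was at 9.45 to 25.5 CPM in the 6 libraries of batch 1 and at 84.8 to 197.5 CPM in batch 2, with no overlap (log2 difference 3.13, SE 0.26, edgeR adjusted p = 1.148e-07). Lncpint, a p53-induced RNA, fell by 4.88 on the log2 scale (SE 0.24, edgeR adjusted p = 6.44e-10), from 5.39 to 8.1 CPM in batch 1 to 0.121 to 0.364 CPM in batch 2. Among 13 tested snoRNA hosts, 8 were higher and 3 lower in batch 2, with Snhg8 at 12.5 to 17.4 CPM and then 22.9 to 26.2 CPM, and Snhg11, a host expressed in neurons, lower by −5.36 (log2, SE 0.53). Of 5 neuron markers, 3 were called lower in batch 2, as Snhg11 was: Dcx (−4.15, log2), Rbfox3 (−3.64) and Snap25 (−5.03). Tubb3 was called higher, and Map2 was not called (−0.13, log2). The summed level of the 5 was 627.6 to 935.5 CPM in batch 1 and 614.5 to 772.2 CPM in batch 2, and most of it was Map2, at 599.7 to 918.5 CPM over the 12 libraries. Of 5 astrocyte markers, 1 was higher and 3 lower, with sums of 508.8 to 1006 and 392.1 to 569.3 CPM, and of 3 tested oligodendrocyte markers 2 were higher, with sums of 15.4 to 32.9 and 38.4 to 138.1 CPM. Both tested microglial markers, of 4, were lower, with sums of 2.92 to 6.57 and 0.655 to 2.33 CPM. Of 7 neural stem markers, 3 were lower in batch 2 and 0 higher (Olig2, Vim and Fabp7), with sums of 1820 to 2972 and 1793 to 2166 CPM. The part of these marker genes in the batch difference was not tested.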

How the data were processed

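Per the labels, RNeasy-purified total RNA gave stranded libraries depleted of rRNA. Per the submitters' processing notes, footprint reads were handled with cutadapt 5.2, UMI-tools 1.1.6 and STAR 2.7.10b, and RNA reads with HTSeq, SAMtools, STAR and Trimmomatic, both on GRCm39. Not given in the sources used here are the P-site tool and the annotation release. The authors deposited raw counts per gene for RNA-seq and a table of P-site positions and footprint lengths. P-sites lay 13 nt (76.67% of rows) or 14 nt (23.33%) after the footprint's first base. Lines naming no gene held 15.62% to 30.28% of each RNA library and were left out.

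The members and gene lists were chosen with earlier results of these data known. Shared runs, the 4 groups, the sets and thinning were chosen after seeing the table, in place of a gene class that needs a transcript-to-gene map. Sets joined transcripts with at least 5 common runs. Named transcripts are the 15 with the most rows and the leaders of the 10 apart sets whose leaders had the most rows; the latter replaced a rule that needed the gene map. ENSMUST00000215568, ENSMUST00000198555 and ENSMUST00000187574 are named as the transcripts next to an edge. Listed genes named were chosen after their values were seen. Differences between mean lengths, and between medians of the leading frame, were tested by exact sign-flip permutation over the 4 libraries.

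The RNA test was edgeR 4.0.16 under R 4.3.3 (TMM, filterByExpr with a minimum count of 10, batch and treatment as terms), with DESeq2 1.42.0, other filters and each library left out as alternatives. Symbols matched 51880 of 57132 gene identifiers. Without a stated strand setting, antisense and overlapping genes cannot be told apart. Footprints were handled in Python 3.11.15 (matplotlib 3.10.9, numpy 2.4.6, pandas 2.3.3, scipy 1.17.1), and matching and the edgeR fit were tested on simulated data.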

Additional observations from a re-analysis of the deposited data

Results flagged for a closer look

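Each of the 32 listed noncoding genes was screened for a library far from the other 5 of its treatment, in 64 groups of 6, and 7 values were found. Chance gives about 1 in 20 where the 6 values come from 1 distribution. Each group here mixes 3 libraries of each batch, and 26 of the 32 genes were called between batches, so that rate does not apply. Malat1 was at 1326 CPM in control library 2, next to 744.1, and at 994.1 CPM in gRNA library 1, next to 632.5. Tug1 was at 274.3 CPM in control library 2, next to 240.5. Control library 6 stood apart for 4 genes: Miat was at 7.28 CPM, next to 1.91, Mir9-3hg at 83.4, next to 32.3, Snhg15 at 9.1, next to 27.5, and Snhg17 at 32.1, next to 54.2.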

How the results depend on the processing

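Counting errors are small, so each alternative moved the share of rows on transcripts without CDS past its interval, while libraries 1 and 4 stayed lowest and highest. In libraries 1 to 4, lengths of 28 to 30 nt alone gave 29.51%, 33.87%, 33.18% and 35.98%, distinct positions 26.43%, 30.09%, 29.54% and 32.02%, and transcripts with at least 10 rows 27.08%, 32.44%, 31.82% and 35.28%. The share of rows at the most used position was 10.81% with at least 20 rows per transcript and 4.92% with at least 200, since fewer rows raise it by construction. Runs of 8 start positions, a stricter match, lowered the share of rows held in common with coding transcripts to 74.43%, and runs of 4 gave 81.76%. The apart share of transcripts was 5.85% with at least 20 rows, 5.26% with at least 200 and 5.68% with runs of 8, which kept all 162 and added others to make 220; with 1 transcript per set, counted against all 3873, it was 1.32%. The direction of the length difference was the same in the 3 alternatives run, with medians of −0.418 to −0.0617 nt, and the apart median of the leading frame was 34.82% to 41.57%. Without each RNA library in turn, 0 of the listed genes were called between gRNA and control and 24 to 27 between batches. Without low-count genes removed, 1 gene of all was called between gRNA and control, and it was not a listed one.

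No paired analysis was possible because the footprint libraries could not be matched to samples and the replicate numbers of the RNA-seq libraries were given in accession order. Some genes stood apart in gRNA and control libraries of the same number. Gfap was at 40.8 and 31.3 CPM in gRNA and control libraries 6, against 0.391 to 1.35 CPM in the rest of batch 2. Snhg11 was at 4.72 and 3.76 CPM in libraries 3, against 15.1 to 17.5 CPM in the rest of batch 1. Malat1 did not: in batch 1 it was highest in gRNA library 1 and control library 2. The RNA fit had no term for pairs, and the part of this in its 0 calls was not tested. The alternatives that need a transcript-to-gene map (genes with no coding transcript, 1 transcript per gene) were not run. Few rows limit single transcripts in library 4, where 23 apart transcripts had at least 50 rows, or 4 with 1 transcript per set.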
